A study of Drosophila melanogaster with 5 samples.

Results

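Clamp, psq and Trl encode the proteins CLAMP, Pipsqueak and GAGA factor, which all bind GA-repeat DNA in Drosophila melanogaster. Peaks called for the RNA helicase MLE at these genes were read from CUT&RUN peak lists of female embryos. In CUT&RUN an antibody, here a rat antibody against MLE, brings a nuclease to the protein and the DNA that it cuts free is sequenced. A peak belonged to a gene when it overlapped the gene's extent on the dm6 assembly widened by 500 bp on each side. This took in 12 of the 4422 peaks in 5 lists, which merged into 4 of 2263 regions. The 3 genes are among 17684 annotated on the main arms, which are both arms of chromosomes 2 and 3 together with 4 and X. They were chosen by the peak calls of these lists, so their peaks are given as a description with no test.

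Each list came from 1 library. The clampRNAi group had 1 library, from 0-2 h embryos, in which the maternal-to-zygotic transition had not yet taken place, whose mothers expressed an RNA hairpin against Clamp (the UAS-CLAMPRNAi[val22] line) under MTD-GAL4, a driver active in the female germ line. The control groups had 2 libraries of embryos aged 2-4 h, after the transition, and 2 libraries aged 0-2 h, all from MTD-GAL4 mothers with a hairpin against GFP. The hairpin was driven in the mothers' germ line, so the depletion is of the maternal supply. In every group meiotic drive stocks gave fathers whose sperm carried X only, and embryos came from several crosses and egg-layings. Peak lists do not measure RNA, so neither the depletion of CLAMP nor the stage could be checked against a marker gene.

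CLAMP is a zinc finger protein that helps to bring the dosage compensation complex, of which MLE is a subunit, to the male X chromosome, and it is supplied to the egg by the mother. GAGA factor, the product of Trl (Trithorax-like), has a BTB domain and a zinc finger, and opens chromatin at many promoters in the early embryo. Pipsqueak has a BTB domain and a DNA-binding domain of its own type, is needed in the female germ line, and is known for a part in Polycomb group silencing. CLAMP and GAGA factor read similar sequences and can compete for sites.

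The lists differed in length and in kind of peak, and these differences bear on every count that follows. There were 493 peaks in the clampRNAi list, 370 and 1589 in the 2-4 h control lists (replicates 1 and 2) and 723 and 1247 in the 0-2 h control lists. Most peaks of 2-4 h control replicate 2 were broad, with a median width of 2190 bp, against 81 to 110 bp in the other 4 lists. Sequencing depth is unknown, so signal was used only within a list, to rank peaks or as a share of the list's summed signal. All embryos were labelled female. Y sequence held 10 of the 493 peaks in the clampRNAi list. In the 2-4 h controls it held 3 of 370 and 17 of 1589, and in the 0-2 h controls 17 of 723 and 21 of 1247. What these peaks mean for the sex of the embryos was not tested.

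Clamp carried a peak in all 5 libraries, psq in 4 and Trl in 1. Each library had 2 of the 3 genes: Clamp and psq in 4 libraries, Clamp and Trl in 2-4 h control replicate 1. Several results below divide the controls by replicate number, and the labels do not say whether a number marks a shared batch. Over all annotated genes, 1.85% had a peak in the clampRNAi library, 1.52% and 6.08% in the 2-4 h controls and 2.53% and 4.08% in the 0-2 h controls. A peak in at least 1 library was found for 7.85% of genes, and in all 5 for 1.21%. All 12 peaks lay wholly inside the extent of their gene, and none relied on the added 500 bp.

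Clamp occupies 3424 bp of 2L, from 22165720 to 22169143, and its peaks were broad. The clampRNAi peak ran from 22166663 to 22168320, 1658 bp. In the 2-4 h controls the peak ran from 22166666 to 22168406 in replicate 1 (1741 bp) and from 22166080 to 22168677 in replicate 2 (2598 bp). In 0-2 h control replicate 1 the same stretch was called as a pair of peaks, from 22166666 to 22167730 and from 22167880 to 22168443, with a gap of 149 bp between them. In 0-2 h control replicate 2 the peak was narrower, from 22167312 to 22167932 (621 bp). The peaks thus covered 48.4% of the Clamp extent after clampRNAi, 50.85% and 75.9% in the 2-4 h controls and 47.6% and 18.1% in the 0-2 h controls. Part of the middle of the gene was covered in every list, and both ends of the gene were left uncovered in all 5. The gene table used here gives no strand, exons or introns, so places in a gene are given as distances from the end with the lower coordinate.

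**Figure D1:**
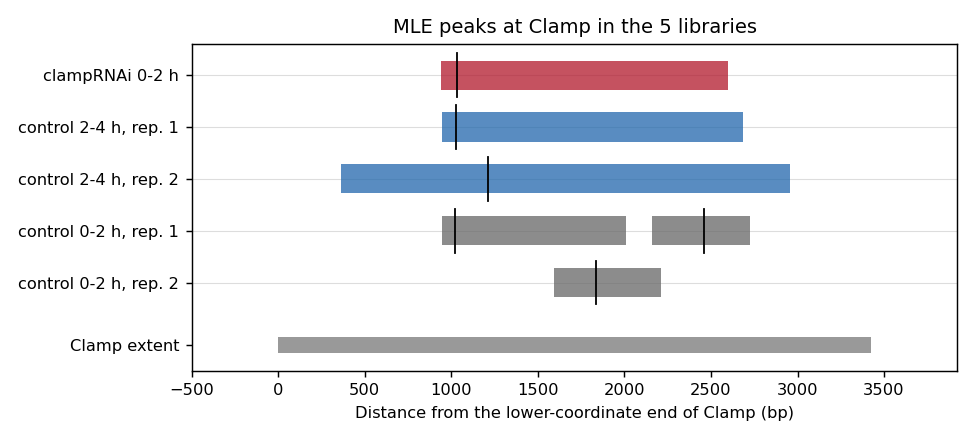
Peaks called at Clamp in each library, as distance in bp from the end of the gene with the lower coordinate. Coloured bars are the called peaks, black ticks the midpoint of the part with the maximum signal, and the lowest bar is the gene extent. The left edges of the clampRNAi peak and of replicate 1 of both control ages lie within 3 bp of each other.

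The left edge and the maximum of the Clamp peak were nearly the same in 3 libraries of different stage and genotype. The edge lay at 22166663 after clampRNAi and at 22166666 in replicate 1 of both control ages. The maximum was 1 base wide and lay at 22166750 after clampRNAi, 22166749 in 2-4 h control replicate 1 and 22166743 in 0-2 h control replicate 1, which is 1030, 1029 and 1023 bp from the lower-coordinate end of the gene. In both replicates 2 it lay farther along, at 22166932 in the 2-4 h control and 22167556 in the 0-2 h control. Over covered bases at Clamp, the Jaccard index (shared over combined length) was 94.9% between clampRNAi and 2-4 h control replicate 1, and 84.6% between clampRNAi and 0-2 h control replicate 1. The 2-4 h replicates gave 67.0% with each other, and the 0-2 h replicates 26.55%. With the replicates 2, clampRNAi gave 63.8% at 2-4 h and 37.45% at 0-2 h, and the replicate 1 controls of both ages gave 89.5% with each other. The clampRNAi peak and both replicate 1 controls were thus closer in extent to one another than the replicates of either control age were. All 5 lists shared 472 bp, in pieces of 419 bp (22167312 to 22167730) and 53 bp (22167880 to 22167932).

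Within its own list the Clamp peak ranked highest after maternal CLAMP depletion. The percentile is the share of peaks in a list with equal or lower total signal, where total signal is the authors' summed coverage of the peak. It was 99.8 after clampRNAi, where the Clamp peak had the second highest total signal of the 493 (rank 2). In the 2-4 h controls the percentile was 95.1 (rank 19 of 370) and 63.4 (rank 582 of 1589). In the 0-2 h controls the strongest Clamp peak stood at 98.3 (rank 13 of 723) and 81.7 (rank 229 of 1247), and the other peak of replicate 1 at 88.7. The percentiles of both control ages overlapped, and the clampRNAi value lay above all 4 of them. Ranks in lists of different lengths show no change in MLE, and the clampRNAi group had 1 library.

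Ranked by maximum in place of total signal, Clamp stood lower. The authors' maximum was 3075 after clampRNAi, at a percentile of 96.35. It was 392 and 100 in the 2-4 h controls, at percentiles of 32.2 and 59.85. It was 1621 and 170 for the strongest peak of each 0-2 h control, at 89.1 and 27.5. By mean signal per base the strongest Clamp peak stood at 87.6 after clampRNAi, 23.5 and 51.9 in the 2-4 h controls and 79.5 and 42.9 in the 0-2 h controls. After clampRNAi and in 0-2 h control replicate 1 the peak was thus both wide and high in its list, while in 2-4 h control replicate 1 and 0-2 h control replicate 2 it was wide and low. No other peak of the clampRNAi list, of 2-4 h control replicate 1 or of 0-2 h control replicate 1 was at least as wide as the strongest Clamp peak and also had at least its maximum. In 2-4 h control replicate 2, 52 other peaks were, and in 0-2 h control replicate 2, 55. These counts depend on how many wide peaks a list holds. With Clamp counted, 8 peaks were at least as wide after clampRNAi. There were 12 and 664 in the 2-4 h controls and 51 and 257 in the 0-2 h controls. The Clamp peaks held 2.97% of the summed signal of the clampRNAi list, 0.712% and 0.0102% in the 2-4 h controls and 1.49% and 0.0226% in the 0-2 h controls. These shares depend on the few strongest peaks, the first of which alone held 40.9% after clampRNAi, 27.1% and 23.9% in the 2-4 h controls and 4.685% and 21.5% in the 0-2 h controls.

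**Figure D2:**
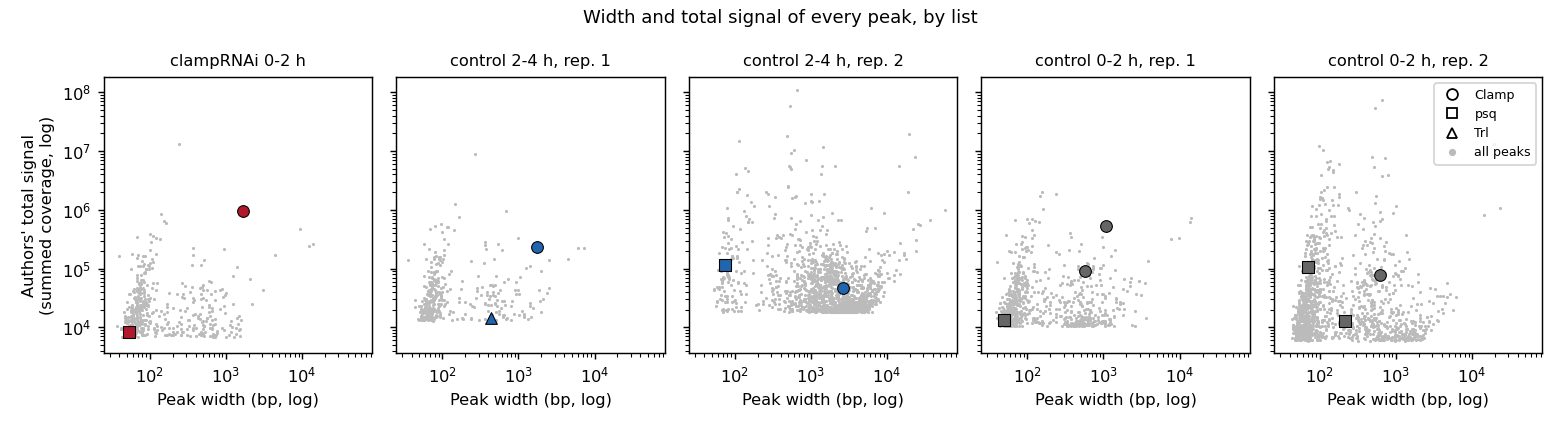
Width (bp, log axis) against the authors' total signal (summed coverage, log axis) for every peak, with 1 panel per list. Grey points are all peaks, and circles, squares and the triangle mark peaks at Clamp, psq and Trl. Signal scales are not comparable between panels. The Clamp circle after clampRNAi stands apart from other peaks of like width, and in 2-4 h control replicate 2 it lies among many broad peaks.

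Few regions called in every library were as broad as Clamp. Of 274 such regions, 24 had a peak of at least 621 bp in each list, Clamp included. With a limit of 500 bp, chosen after the values were seen, there were 29 regions, of which 14 lay on the main arms. Of those 14, 4 held annotated RNA genes or their pseudogenes: the ribosomal RNA repeats of X (in a pair of regions), the 5S ribosomal RNA cluster of 2R, and the U6 snRNA genes of 3R beside Esyt2 and REPTOR. A further 7 overlapped no annotated gene. The remaining 3 lay in Clamp, in Pzl (3R, 3169397 to 3170376), which encodes a mechanosensitive ion channel of the Piezo kind, and in AMPdeam (X, 13843117 to 13845175), which encodes AMP deaminase. Clamp lies 1.345 Mb from the largest coordinate annotated or called on 2L. Other regions of the 14 also lay near an arm end: 23512785 to 23513712 on 2L, 1825693 to 1826694 on 2R, and several between 23019817 and 23457549 on X. Those at AMPdeam, the 5S cluster and the U6 genes lay farther in. Whether place on the arm bears on width was not tested.

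Clamp stood alone in its neighbourhood in the shorter lists, of clampRNAi and both replicate 1 controls. The nearest peak beyond the widened extent lay 1195 kb away in the clampRNAi list and in 2-4 h control replicate 1, and 634.6 kb away in 0-2 h control replicate 1, where it lay among histone genes. In both replicates 2 it lay close by, inside CG42748, at 10.4 kb in the 2-4 h control and 10.96 kb in the 0-2 h control, and in both it began at 22154710. CG42748 overlaps Clamp by 502 bp at the lower-coordinate end, and the broad peak of 2-4 h control replicate 2 reached into that overlap. No Clamp peak of the other 4 lists touched another annotated gene. Wide gaps were not particular to Clamp in the shorter lists. After clampRNAi, in 2-4 h control replicate 1 and in 0-2 h control replicate 1, these lists held 493, 370 and 723 peaks. In that order the nearest peak beyond psq lay 388.5, 533.9 and 33.0 kb away, and beyond Trl 790.2, 790.2 and 474.0 kb.

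At psq the peaks were narrow and fell at 2 positions, which were called in different sets of libraries. The gene spans 59393 bp of 2R (10557888 to 10617280) and has 15 RefSeq transcripts, against 10 for Trl and 2 for Clamp. Its 5 peaks formed 2 regions separated by 880 bp, with maxima 41.8 and 42.8 kb from the lower-coordinate end, and the rest of the gene carried none. The region nearer that end was called in 2-4 h control replicate 2, from 10599699 to 10599772, and in 0-2 h control replicate 2, from 10599704 to 10599772. The other region was called after clampRNAi, from 10600696 to 10600748, and in both 0-2 h controls, from 10600696 to 10600745 in replicate 1 and from 10600653 to 10600864 in replicate 2. No psq peak was called in 2-4 h control replicate 1, and 0-2 h control replicate 2 alone had both regions, so that 3 of the 5 peaks were left without it. With peaks of at least 200 bp alone, psq had 1 peak in 1 library.

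The first psq region ranked high where it was called. Its authors' maximum was 2280 in 2-4 h control replicate 2 and 2007 in 0-2 h control replicate 2, with percentiles of total signal of 85.0 and 85.2. Both peaks ended at the same base, and their maxima lay 10599727 to 10599738 and 10599721 to 10599733. Calls in both replicates 2 and no other library were common, at 252 of the 2263 regions (11.1%), whose median percentiles were 75.5 in the 2-4 h and 70.45 in the 0-2 h list. Their median merged width was 915 bp, against 74 bp at psq.

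The second psq region was called in all 3 libraries of 0-2 h embryos, clampRNAi and controls, and not in the 2-4 h lists. The list of 2-4 h control replicate 1 holds 370 peaks. The calls of this region ranked 422 after clampRNAi and 552 and 731 in the 0-2 h controls. All 3 were thus lost when every list was kept to 370 peaks. The list of 2-4 h control replicate 2 is longer, with 1589 peaks of median width 2190 bp, and lacked the region too. Why either 2-4 h list lacked it was not tested. The maximum of this region was 230 after clampRNAi, at a percentile of 14.6 by total signal. The lowest total of that list was 6840, against 8299 for this peak. In the 0-2 h controls its maximum was 366 and 348, at percentiles of 23.8 and 41.5. The maxima of the 3 peaks lay within a few bases of each other, starting at 10600715, 10600716 and 10600717. The depleted library and both 0-2 h controls thus called the same position, and the 2-4 h controls did not call it. By maximum signal the percentiles were higher, at 37.3 after clampRNAi and 46.9 and 53.3 in the 0-2 h controls. In total, 78 regions (3.45%) had this pattern, 29 of them on X, with median percentiles of 14.5 after clampRNAi and 33.5 and 50.0 in the 0-2 h controls.

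**Figure D3:**
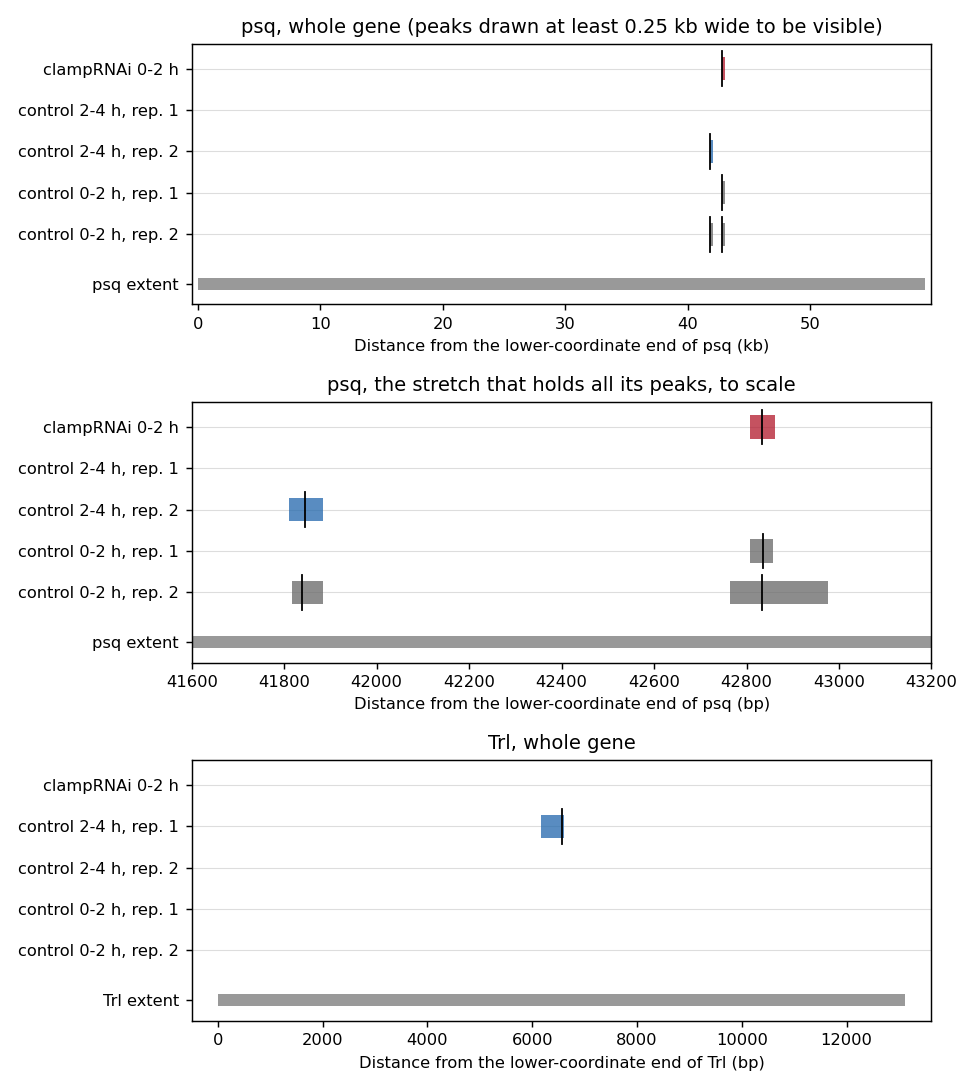
Peaks called at psq (whole gene in kb above, the stretch with its peaks in bp in the middle) and at Trl (below), as distance from the end of the gene with the lower coordinate. Bars are called peaks, black ticks the midpoint of the maximum, and the lowest bar of each panel is the gene extent. In the top panel narrow peaks are drawn 0.25 kb wide. The psq peaks fall in 2 places 880 bp apart, and Trl has 1 peak in 1 library.

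Trl had 1 weak peak in 1 library. The gene spans 13121 bp of 3L (14747929 to 14761049), and the peak, in 2-4 h control replicate 1, ran from 14754094 to 14754528 (435 bp), at the middle of the gene. Its authors' maximum of 41 stood at a percentile of 2.43 and its total signal at 11.1, so it was among the lowest of its list. It is the only Trl call, and without that library there was none. The peak also lies inside CG42507, a gene annotated from the same first base as Trl to 14757962, and cannot be assigned to one of them. Of all regions, 3 were called in 2-4 h control replicate 1 alone. The nearest peaks beyond Trl lay 66.2 kb away in 2-4 h control replicate 2 and 346.6 to 790.2 kb away in the other 4 lists.

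The 3 genes differ in length, and the share of genes with a peak differed between genes of their lengths. Among 140 other protein-coding genes within 1.2 times the length of psq in either direction, a range set after the data were seen, 50.7% had a peak in at least 1 library. By library this was 22.1% after clampRNAi, 19.3% and 36.4% in the 2-4 h controls and 26.4% and 39.3% in the 0-2 h controls. Among 510 genes of like length to Trl, 17.45% had a peak in at least 1 library, and 2.75% in 2-4 h control replicate 1. Among 1438 genes of like length to Clamp, 3.96% had a peak in at least 1 library and 3 genes (0.209%) in all 5. These were BTBD9, scyl and Chd3, named after their values were seen. Their mean percentiles over the 5 lists were 84.2, 41.6 and 52.8, against 87.7 for Clamp.

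Genes of related proteins were called in 0 to 5 libraries. Of 7 other genes listed for a pipsqueak-type domain, 5 had a peak in at least 1 library, against 7.85% of all genes and 50.7% of genes of like length to psq. Of those 5, bab1, bab2, lov and Eip93F span 36848 to 65426 bp, so the count was not read as one about the family. The lengths of the listed genes without a peak are not given here. The neighbouring genes bab1 and bab2, which pattern the legs and abdomen, had one in all 5, with bab2 at percentiles of 62.9 after clampRNAi, 47.3 and 65.5 in the 2-4 h controls and 72.1 and 80.8 in the 0-2 h controls. The strongest peak inside bab1 lay near its upper end, at 1100812 to 1100889 on 3L after clampRNAi and starting between 1100791 and 1100804 in the controls. The behavioural gene lov was called in both replicates 2 alone, at 96.5 in the 2-4 h and 95.8 in the 0-2 h control. Both of these peaks ended at 25085361, outside the lov extent, which begins at 25085780, and inside it only a peak at a percentile of 18.75 in 2-4 h control replicate 2 was called. Eip93F, an ecdysone-response gene, was called in both 0-2 h controls alone, at 16.3 and 51.1.

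Of 10 genes of BTB proteins, most of them with zinc fingers, 7 had a peak in at least 1 library, against the same 7.85% of all genes, and 6 without the added 500 bp. Of these 7, br, ab, lola, fru and chinmo span 50403 to 131314 bp. Among genes of like length to psq (59393 bp) the share with a peak was 50.7%. The lengths of the uncalled genes are not given, and this count too was not read as one about the family. The strongest of the 7 was br (broad), an ecdysone-response gene on X. It had several peaks in each list, the highest at percentiles of 98.4 after clampRNAi, 97.8 and 94.7 in the 2-4 h controls and 99.0 and 95.7 in the 0-2 h controls. In ab (abrupt) a narrow peak of 51 to 62 bp was called after clampRNAi, in 2-4 h control replicate 1 and in both 0-2 h controls, at 42.8, 25.7, 54.1 and 65.9. In lola, a gene of axon growth that lies 14.6 kb from psq, a peak at 10504433 to 10504501 was called in 2-4 h control replicate 2 and one at 10504432 to 10504507 in 0-2 h control replicate 2, as at the first psq region. A different lola peak was called in 0-2 h control replicate 1. The sex-specific behaviour gene fru had peaks in both 0-2 h controls alone, at 7.19 and 40.5.

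Of 6 activators of the early embryo, 3 had a peak in at least 1 library, against 7.85% of all genes. Among them, opa (odd-paired, a zinc finger pioneer factor) was called in every library, at 87.8 after clampRNAi, 82.2 and 82.1 in the 2-4 h controls and 89.6 and 88.7 in the 0-2 h controls. The pioneer gene zld was called in 0-2 h control replicate 2 alone, at 22.3, and Stat92E in both replicates 2 at different positions, at 7.24 in the 2-4 h and 4.17 in the 0-2 h control. Of 12 genes of the NURF, FACT and PBAP chromatin complexes, with which GAGA factor acts, 2 had a peak. Over all genes the share was 7.85%. The called genes, e(y)3 and brm, are of like length to Trl, and among genes of that length the share was 17.45%. The lengths of the uncalled genes are not given here, so 17.45% is not a reference for the whole list. The PBAP subunit gene e(y)3 was called in both replicates 2, at 72.3 in the 2-4 h and 72.4 in the 0-2 h control, and the remodelling ATPase gene brm in 2-4 h control replicate 2 alone, at 23.4. Of 17 Polycomb group and related genes, Dsp1 was called in both replicates 2, at 94.1 in the 2-4 h and 93.0 in the 0-2 h control, and grh in 2-4 h control replicate 2 alone, at 25.4, which makes 2 of 17. Of 9 insulator protein genes only Cp190 was called, in 2-4 h control replicate 2, at 19.9. Of 7 dosage compensation genes other than Clamp only roX2 was called, in 2-4 h control replicate 1, at 45.4. Beside these counts stands the same 7.85% of all genes with a peak in at least 1 library, and 6.08% in 2-4 h control replicate 2. The counts are small and were not read as results about the lists. None of them was tested against the share over all genes.

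**Figure D4:**
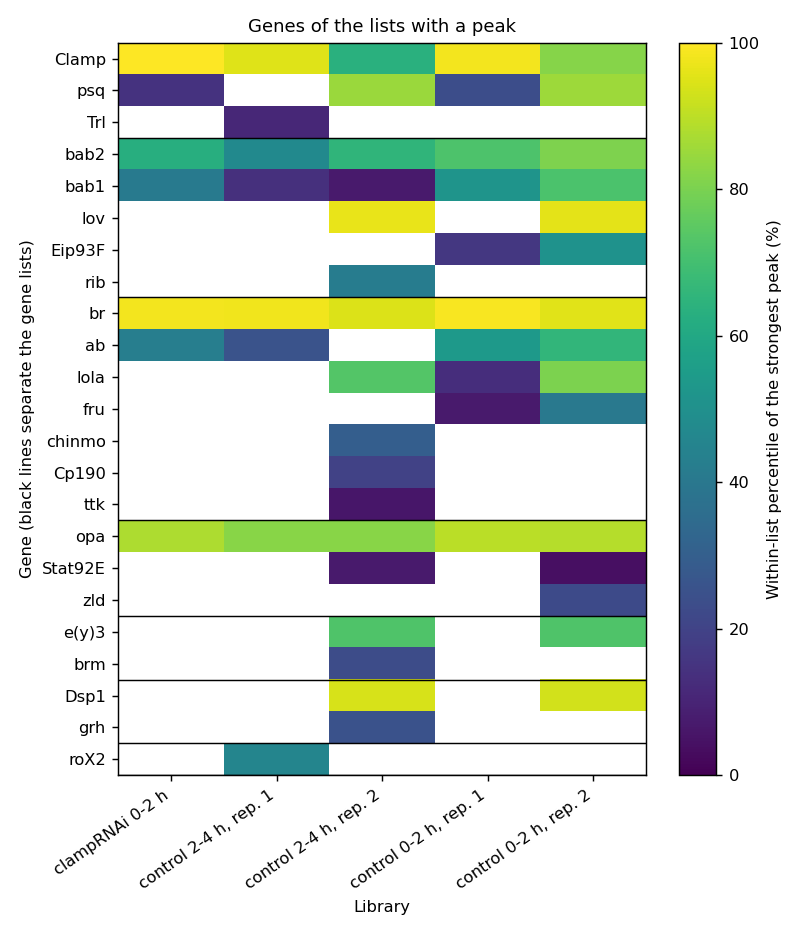
Within-list percentile of the strongest peak (colour, in percent) for each of the 23 listed genes with a peak, by library. White marks no peak. Black lines separate the lists, from top: GA-binding proteins, pipsqueak-domain genes, BTB protein genes, early activators, GAGA factor partners, Polycomb group and related genes, and dosage compensation. Clamp, bab1, bab2, br and opa are coloured in all 5 columns, while e(y)3, Dsp1, lov and Stat92E are coloured in both replicates 2 alone.

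The genes with patterns most like Clamp and psq were found among 13922 protein-coding genes by the Euclidean distance between the 5 percentiles of the strongest peak, set to 0 where none was called. Nearest to Clamp were kek5 on X (distance 15.1 percentile points), Esyt2 and REPTOR on 3R, which share 1 region (17.1), and CG45002 on X (18.6). In all 4 the percentiles were lower than at Clamp after clampRNAi (89.9 to 90.7) and in replicate 1 of the 2-4 h (86.5 to 88.6) and 0-2 h controls (93.2 to 93.9), and higher than at Clamp in both replicates 2. Nearest to psq were PlexA on chromosome 4 (11.9), CG42541 on X (18.5), Myo81F on 3R (21.4) and lola (22.1). All 4 were high in both replicates 2, from 73.4 to 99.7, uncalled in 2-4 h control replicate 1 and at 13.1 to 30.6 in 0-2 h control replicate 1. In the clampRNAi library, where psq was called at 14.6, PlexA was at 3.25 and Myo81F at 18.1, while CG42541 and lola were not called. The genes near Clamp and psq were picked by these same percentiles, so their likeness was set by the choice. Gene length was not matched. Myo81F runs from 567076 to 2532932, kek5 from 19353181 to 19471914 and CG45002 from 16969069 to 17066732, while Clamp spans 3424 bp. At psq the percentiles in both replicates 2 belong to the first region. Those after clampRNAi and in 0-2 h control replicate 1 belong to the second. The lola percentiles also come from different peaks, so likeness between genes is not likeness between single sites. Only CG42507, which shares its peak, matched Trl (distance 0), since the next genes were those without a peak in any library.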

How the data were processed

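MLE was mapped by CUT&RUN in 5 libraries of female embryos, with 1 peak list per library. Per the submitters' processing notes the tools were SEACR 1.3, Bowtie2 2.4.4, Trimmomatic 0.40, bcl2fastq 2.17 and deepTools, on dm6, with no roles given. For each peak, the deposited lists hold the authors' total signal and maximum signal, as whole numbers in the layout that SEACR writes. The control track, threshold and any spike-in scaling are not stated there, and depth is unknown, so signal was compared only within a list.

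Sample titles gave each library its group and replicate number, and nothing says which replicates came from separate crosses. Coordinates were made 1-based. Gene extents came from a RefSeq gene table of Release 6 plus ISO1 MT, the assembly that dm6 names, in which all 3 genes were found by symbol. A peak was assigned to a gene on 1 bp of overlap with the extent plus 500 bp. Peaks sharing at least 1 bp, on all contigs, were merged into regions. No genome was used, so GA repeats were not searched and no sequence is shown. No test was run: the genes were chosen on their peaks, 1 library stands for clampRNAi, and 2 against 2 control libraries cannot pass an exact permutation test.

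The members and gene lists were chosen with earlier results of these data known. Of the 72 entries in 8 lists, pfk was not matched, since its symbol is a synonym of 2 genes. Genes named beside the members were, by rule, those whose extent overlaps a member's peak, up to 4 per list with a peak in the most libraries (ties by mean percentile), and the 4 protein-coding genes nearest in percentiles. Outside this rule, Pzl, AMPdeam, BTBD9, scyl, Chd3, chinmo and the RNA and histone genes were named from the results. Assignment was tested on simulated peaks. Python 3.11.15 with pandas 2.3.3 and numpy 2.4.6 was used. Alternatives changed the margin, the peak width, the list length, the overlap, the ranking and the libraries.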

Additional observations from a re-analysis of the deposited data

How the results depend on the processing

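With a margin of 0 bp or 2000 bp, or with at least 50% of a peak required inside the region, the number of libraries and of peaks stayed at 5 and 6 for Clamp, 4 and 5 for psq and 1 and 1 for Trl. The psq counts depended on narrow and low peaks: with peaks of at least 200 bp alone, or of at least 100 bp (chosen after seeing the data), psq had 1 peak in 1 library. When only the 370 peaks of most signal in each list were used, psq had 2 peaks in 2 libraries and Clamp 5 peaks in 4. Leaving out each library in turn gave 3 to 5 peaks in 3 to 4 libraries for psq, with 3 peaks without 0-2 h control replicate 2, 4 to 5 peaks in 4 libraries for Clamp, and 0 to 1 peak in 0 to 1 library for Trl, with 0 without 2-4 h control replicate 1. Ranked by maximum signal, 6 of 10 percentiles of the strongest peak moved by more than the spread between replicates or the counting interval, 2 of them upwards. With genes within 1.5 times the length, also set after seeing the data, 49.7% of genes like psq, 15.9% of those like Trl and 3.82% of those like Clamp had a peak in at least 1 library, and 8 of 3248 like Clamp had one in all 5. No paired analysis was possible because the results come from no test. Depth is unknown, and a gene without a call is not shown to lack MLE. The control track and threshold are not stated, so a called peak is not shown to be MLE binding either.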
